A study of Mus musculus with 8 samples.

Results

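The Hox genes are the homeobox genes of the A, B, C and D clusters, and this account follows them through whole mouse testes that carry or lack Dnmt3a. Members were the gene entries named Hoxa, Hoxb, Hoxc or Hoxd followed by a number. Of 54087 genes in the count files, 39 had such a name, and the 35 with at least 10 counts summed over the 8 libraries are described here. The A cluster on chromosome 6 gave 10 of 11 entries, the B cluster on chromosome 11 gave 10 of 10, the C cluster on chromosome 15 gave 8 of 9, and the D cluster on chromosome 2 gave 7 of 9. Hoxa11, Hoxc12, Hoxd11 and Hoxd12 stayed under 10 counts. In the GENCODE annotation of GRCm38 the members span chr6:52155590-52260880, chr11:96194316-96368256, chr15:102921103-103036852 and chr2:74668310-74765142.

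The testes came from male C57BL/6 mice that were Dnmt3A WT/WT (WT) or Dnmt3A KO/KO (KO), at 19 or 25 days post partum (dpp). Dnmt3a encodes a DNA methyltransferase that sets new methylation. Each of the 4 groups had 2 libraries. How the KO allele was made, and whether 2 libraries of a group came from different animals, is not given in the sources used here, so p-values measure only the spread between these libraries.

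Hox proteins are homeodomain transcription factors that give the segments of the embryo their identity along the head-to-tail axis. Within a cluster the genes lie in the order of their paralog groups, from group 1 at the 3' end to group 13 at the 5' end, and members of the same group in different clusters share descent from 1 ancestral gene. Hox proteins bind DNA together with TALE homeodomain cofactors of the Pbx, Meis and Prep families, and polycomb complexes keep clusters silent outside their domains. In the testis, Hoxa4 is known for transcripts in male germ cells, while many other Hox genes mark the position of somatic tissue.

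Levels are CPM, that is counts scaled to library size, here with TMM scaling, and levels of different genes are compared only per kilobase of exon. Fold changes are log2 values from the edgeR quasi-likelihood fit, given with the standard error (SE). A gene was called where its p, adjusted by Benjamini-Hochberg over all 23353 genes tested, was under 0.05. Gene totals ran from 22515812 to 50445334 counts per library, so that 3 counts were worth between 0.0811 and 0.126 CPM. Dnmt3a stood at 147 and 141 CPM in WT against 114 and 112 CPM in KO at 19 dpp, and at 48.7 and 70.0 CPM in WT against 76.8 and 67.2 CPM in KO at 25 dpp. Since the deleted part of the gene is not given in the sources used here, these values do not check the genotype labels.

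Some libraries stood apart in genes other than the Hox genes. Crisp1, a secreted protein of the epididymis, was at 11.3 CPM in KO 25 dpp replicate 1, at 0.0355 CPM in replicate 2 and at most 0.136 CPM elsewhere. Defb42, an epididymal defensin, was at 3.24 CPM in that library and at 0 in replicate 2. The 12 markers of epididymis and efferent ducts summed to 18.8 and 3.23 CPM in these libraries, but Lcn5, Spink12 and Spag11b were each at 0.0270 CPM in replicate 1, that is, near 0. In WT at 25 dpp the same markers summed to 11.45 and 7.90 CPM. Other markers of the list went the other way. Rnase10 was at 8.94 and 6.49 CPM in WT at 25 dpp and at 0 in KO replicate 1. Cst11 was at 0.162 CPM in KO replicate 1 and 0.355 CPM in replicate 2. In WT at 25 dpp, 10 spermatid markers summed to 3032 CPM in replicate 1 and 468 CPM in replicate 2. Results on Hox genes at 25 dpp are therefore given with and without KO 25 dpp replicate 1 where it changed them.

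Most Hox genes were scarce in these testes. The 35 members held between 12 and 6884 counts over all libraries, with a median of 148, and 23 of them had a mean below 1 CPM. Only Hoxa4, Hoxd8 and Hoxd9 had a mean above 10 CPM. A filter on low counts kept 27 members for testing. Hoxa2, Hoxa6, Hoxa10, Hoxa13, Hoxb1, Hoxc11, Hoxc13 and Hoxd1, each with a mean of at most 0.19 CPM, were not tested. In a bulk library, fewer cells of a type and less RNA per cell cannot be told apart.

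**Figure D1:**
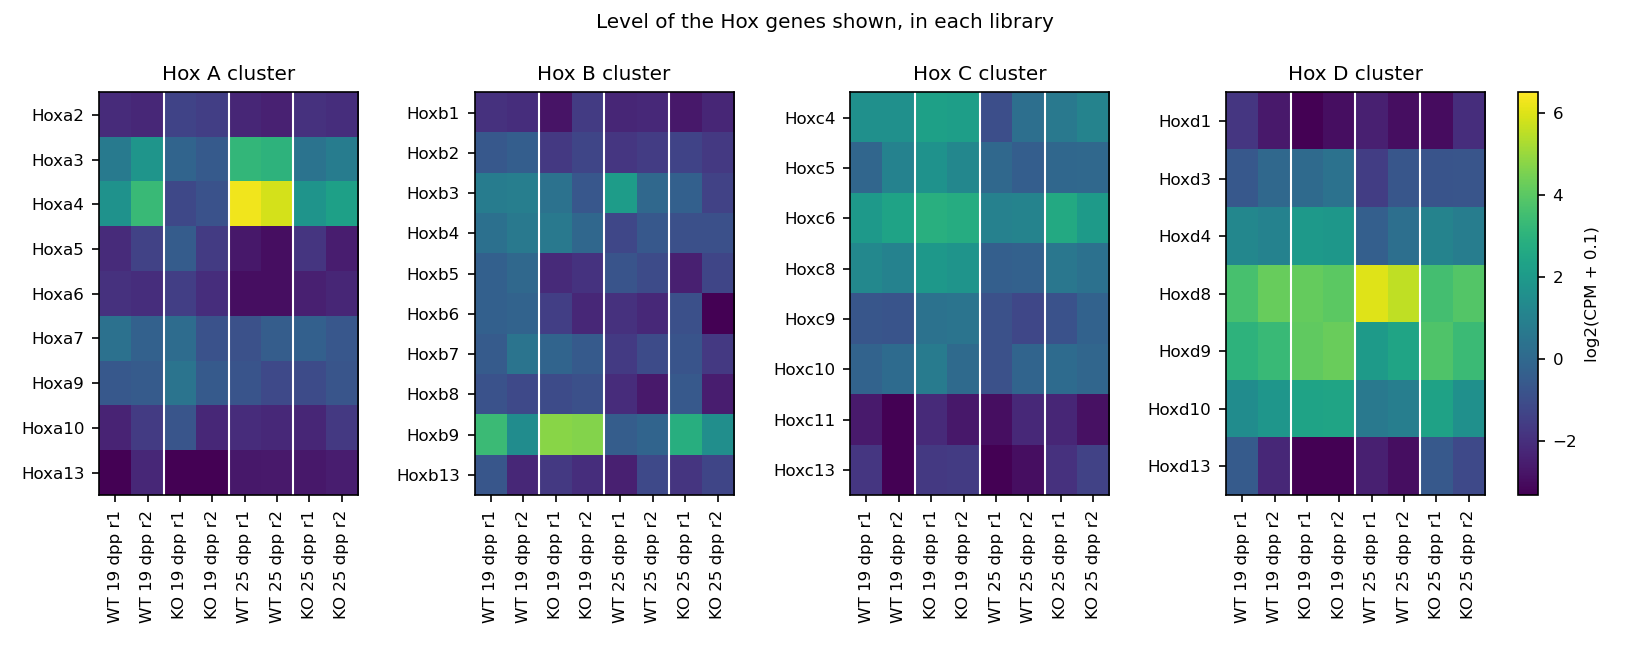
Level of 34 Hox genes in each library, as log2(CPM + 0.1), with 1 panel per cluster, genes in the order of their paralog groups from top to bottom and libraries as columns (r1 and r2 are replicates 1 and 2). The brightest cells are Hoxa4 and Hoxd8 in WT at 25 dpp, and Hoxb9 is bright in KO at 19 dpp.

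The leading Hox transcript differed between the groups. Per kilobase of exon, Hoxd8 led in WT at 19 dpp with 5.59 CPM per kb, followed by Hoxd9 with 4.24 and Hoxa4 with 4.15. In KO at 19 dpp Hoxb9 led with 10.2 CPM per kb, ahead of Hoxd9 with 8.53 and Hoxd8 with 6.22. In WT at 25 dpp Hoxa4 stood at 42.8 and Hoxd8 at 20.6 CPM per kb, while the next gene, Hoxd9, was at 2.18. In KO at 25 dpp Hoxd9 with 5.65, Hoxd8 with 4.77 and Hoxa4 with 2.49 CPM per kb came first by the group means. KO replicate 1 had Hoxd9 at 6.51 and Hoxd8 at 4.27 CPM per kb there, and replicate 2 had Hoxd8 at 5.26 and Hoxd9 at 4.80, so the order of this pair turned between the libraries. These orders rest on 2 libraries each, and Hoxd9 and Hoxa4 in WT at 19 dpp overlap, since Hoxa4 differed widely between its replicates there.

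As a share of the CPM summed over the 35 genes, Hoxa4 held a mean of 9.27% in WT and 0.395% in KO at 19 dpp, and 44.6% in WT and 7.02% in KO at 25 dpp. The share of Hoxa4 in WT at 19 dpp was 4.99% in replicate 1 and 13.6% in replicate 2. The share of Hoxb9 at 19 dpp was 16.5% and 3.58% for WT, against 25.6% and 26.6% for KO. At 25 dpp it held 0.38% and 0.593% in WT, and 11.4% and 5.26% in KO, the last being the value without KO replicate 1. The sum itself was 62.4 and 74.6 CPM in WT against 104 and 97.0 CPM in KO at 19 dpp. At 25 dpp it was 172 and 133 CPM in WT against 62.1 and 53.3 CPM in KO, so the group with the higher sum changed between the ages.

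Fewer Hox genes rose than fell in WT between 19 and 25 dpp. Hoxa3, Hoxa4 and Hoxd8 rose, and the genes that fell included Hoxb2, Hoxb4, Hoxb7, Hoxb9, Hoxc4, Hoxc6, Hoxc8, Hoxd4, Hoxd9 and Hoxd10. These are 3 and 11 of 27 tested members, against 34.9% of all tested genes called higher and 25.4% called lower, 60.3% in all. The median log2 change was -0.96 over the Hox genes and 0.01 over all genes. The libraries of the ages did not overlap for 23 members, 3 higher and 20 lower at 25 dpp, against 43.4% and 40.3% of all tested genes.

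The promoter stretches of 4 members are shown because their genes moved in opposite directions with age in WT: Hoxa3 and Hoxd8 rose, Hoxd9 and Hoxd10 fell. Each is the 250 bases before the RefSeq gene start on GRCm38.p6, on the gene's strand, and capitals mark each CpG, the dinucleotide (C followed by G, the same on both strands) at which Dnmt3a sets methylation. No methylation was measured in these libraries.
Hoxa3: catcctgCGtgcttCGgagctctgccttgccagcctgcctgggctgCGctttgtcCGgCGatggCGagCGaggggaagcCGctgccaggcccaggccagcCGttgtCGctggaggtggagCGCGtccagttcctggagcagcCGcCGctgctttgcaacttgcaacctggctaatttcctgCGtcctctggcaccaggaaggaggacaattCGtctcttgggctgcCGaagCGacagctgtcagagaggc
Hoxd8: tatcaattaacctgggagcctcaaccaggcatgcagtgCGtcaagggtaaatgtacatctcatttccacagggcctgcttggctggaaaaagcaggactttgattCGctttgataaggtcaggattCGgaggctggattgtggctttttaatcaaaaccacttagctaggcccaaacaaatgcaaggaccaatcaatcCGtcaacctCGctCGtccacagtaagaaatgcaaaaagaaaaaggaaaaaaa
Hoxd9: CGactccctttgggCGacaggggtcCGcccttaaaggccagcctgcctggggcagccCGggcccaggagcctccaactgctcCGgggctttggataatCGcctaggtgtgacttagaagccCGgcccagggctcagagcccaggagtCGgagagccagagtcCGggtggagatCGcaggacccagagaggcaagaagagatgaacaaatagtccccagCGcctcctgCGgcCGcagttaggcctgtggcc
Hoxd10: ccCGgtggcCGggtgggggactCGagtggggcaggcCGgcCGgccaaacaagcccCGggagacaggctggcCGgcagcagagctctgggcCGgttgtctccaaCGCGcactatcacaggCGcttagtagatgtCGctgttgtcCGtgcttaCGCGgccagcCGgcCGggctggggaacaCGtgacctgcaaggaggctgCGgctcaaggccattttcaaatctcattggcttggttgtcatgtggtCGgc
They lie at chr6:52213068-52213317 on the minus strand and at chr2:74704365-74704614, chr2:74697513-74697762 and chr2:74691641-74691890 on the plus strand. Hoxa3 has 18 CpGs in this window, Hoxd8 has 6, Hoxd9 has 13 and Hoxd10 has 20. Entries were found for 19 of the 35 members, 20 in all because Hoxa10 has a pair, and they held a median of 12.5 CpGs (3 to 35). Over 32841 entries of mouse genes the median was 6, the quartiles were 2 and 16, and 92.1% held at least 1 CpG. The rising pair thus held 18 and 6 CpGs and the falling pair 13 and 20. Of other members that fell, Hoxd4 had 3, Hoxc4 had 8 and Hoxb4 had 14. Whether the number of CpGs bears on the direction was not tested. Hoxa4, Hoxb9 and Hoxc6 had no entry.

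Hoxa4, of paralog group 4, had the largest rise. Its levels were 3.11 and 10.1 CPM in WT at 19 dpp and 78.3 and 58.2 CPM at 25 dpp. Both libraries at 25 dpp lay far above both at 19 dpp, which themselves differed. The log2 change was 3.36 (SE 0.537, adjusted p = 0.00248). Hoxa4 lies at chr6:52189671-52191753 on the minus strand, and 16.0% of its exon length overlaps the antisense entry Gm29430.

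Hoxa3, a gene of the neck and pharyngeal arches in the embryo, went from 1.57 and 3.36 CPM to 9.05 and 7.99 CPM. Again both older WT libraries were above both younger ones (log2 change 1.78, SE 0.405, adjusted p = 0.00715). Of its exon length, 25.4% overlaps antisense entries, and without the strand setting of the counting the reads there cannot be told apart.

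Hoxd8 was already the leading Hox gene per kilobase at 19 dpp and rose further. It stood at 12.2 and 18.4 CPM in WT at 19 dpp and at 65.6 and 47.3 CPM at 25 dpp (log2 change 1.88, SE 0.262, adjusted p = 0.0013). The groups were well separated. Its exons share no base with another annotated gene. The calls of Hoxa3, Hoxa4 and Hoxd8 held in each of 17 alternatives, which covered other scalings, filters and tests and the loss of any 1 library.

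**Figure D2:**
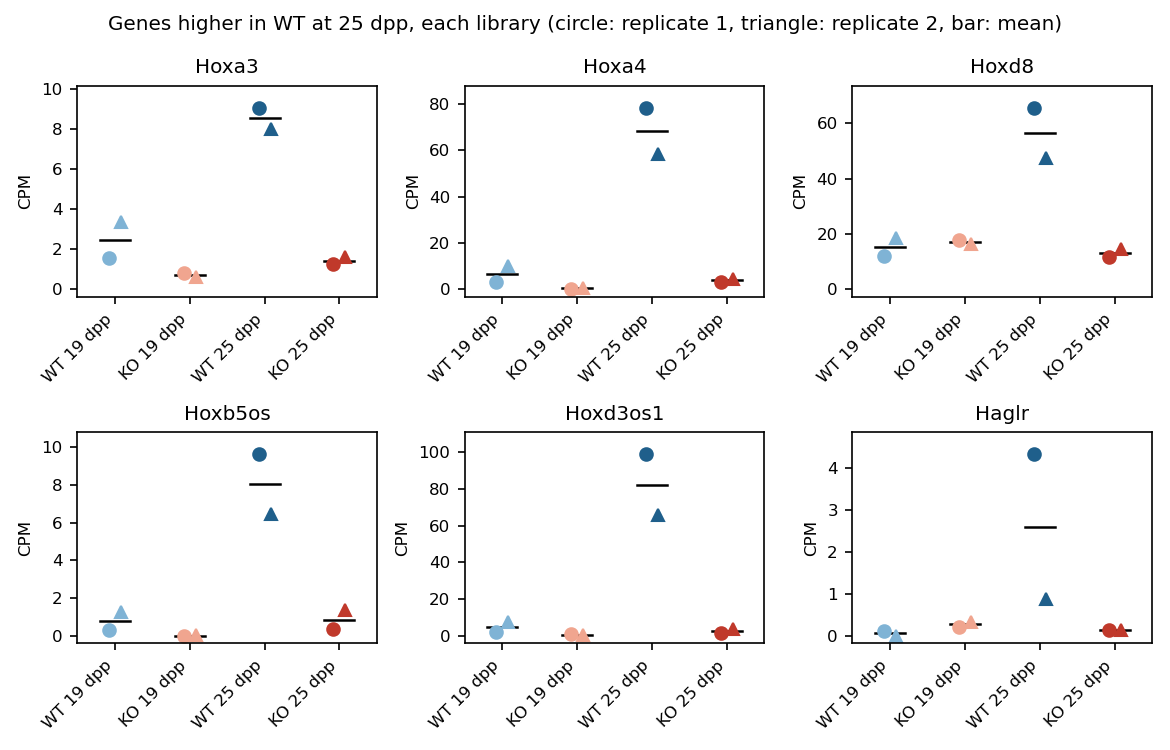
CPM of Hoxa3, Hoxa4 and Hoxd8 and of the non-coding genes Hoxb5os, Hoxd3os1 and Haglr in each library (circle, replicate 1; triangle, replicate 2; bar, group mean). In each panel the WT libraries at 25 dpp are the highest of the 8, and for Hoxd3os1 they reach 98.8 and 65.8 CPM.

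Several paralogs of the rising genes went the other way. In group 4, Hoxa4 rose while Hoxb4 (log2 change -1.55), Hoxc4 (-1.96) and Hoxd4 (-1.22) fell in the same WT libraries. In group 8, Hoxd8 rose and Hoxc8 fell from 2.31 and 1.95 CPM to 0.682 and 0.731 CPM, a log2 change of -1.59 (SE 0.325, adjusted p = 0.0047). In group 9, Hoxb9 and Hoxd9 fell, and in group 10 Hoxd10 fell.

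Hoxb9, which acts in thoracic patterning, had the steepest fall of those called in WT. It was at 10.3 and 2.67 CPM at 19 dpp and at 0.654 and 0.790 CPM at 25 dpp (log2 change -3.16, SE 0.736, adjusted p = 0.00964). The younger libraries differed widely from each other, yet both exceeded the older ones. Hoxc4 fell from 2.95 and 2.96 CPM to 0.409 and 1.11 CPM (SE 0.466, adjusted p = 0.00857). Hoxc6, a thoracic gene, fell from 3.76 and 5.06 CPM to 1.91 and 1.99 CPM (log2 change -1.18, SE 0.318, adjusted p = 0.0144).

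In the D cluster, Hoxd9 fell from 8.06 and 10.1 CPM to 4.04 and 5.29 CPM (log2 change -0.96, SE 0.261, adjusted p = 0.0148). Hoxd10, which acts with Hoxd9 in limb and spinal patterning, fell from 2.67 and 3.51 CPM to 1.47 and 1.73 CPM (log2 change -0.95, SE 0.347, adjusted p = 0.0452). This call held in 5 of 17 alternatives. Hoxd4 fell from 2.22 and 1.95 CPM to 0.682 and 1.11 CPM (SE 0.354, adjusted p = 0.0193), but shares 52.3% of its exon length with Hoxd3 and Gm28230 on the same strand, so its counts may include theirs.

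Hoxb2 (log2 change -1.49) and Hoxb7 (-1.65) also fell, each from under 1.5 CPM. The call of Hoxb7 held in 6 of 16 alternatives. Over the same ages the 20 Sertoli cell markers summed to 6187 and 5354 CPM at 19 dpp and 2723 and 3431 CPM at 25 dpp in WT, and 18 of 20 fell. The 10 markers of interstitial stroma, from Pdgfra to Gli1, all fell as well. With the Sertoli sum as scaling, 1 of the 11 falls, that of Hoxb9, was still called. Hoxa3, Hoxa4 and Hoxd8 still rose. That scaling raised the median of all genes at 25 dpp by 0.91, so it could not turn a rise, and it weakens falls by itself. The part of these cell types in the Hox changes was not tested. The 10 markers of late spermatocytes summed to 856 and 2152 CPM in WT at 19 dpp and 11980 and 9042 CPM at 25 dpp, and 9 of 10 rose.

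KO was compared with WT at 19 dpp first. In KO, Hoxd9 was higher, and Hoxa3, Hoxa4, Hoxb5 and Hoxd13 were lower. These 1 and 4 of 27 tested members compare with 8.80% of all tested genes called higher and 13.2% called lower. The median log2 change of the Hox genes was 0.15, and that of all genes 0. Libraries did not overlap for 17 members, 10 higher and 7 lower in KO, against 32.7% and 33.8% of all tested genes.

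Hoxa4 was at 3.11 and 10.1 CPM in WT against 0.335 and 0.454 CPM in KO at 19 dpp. Both KO libraries were far below both WT libraries, by a log2 change of -4.03 (SE 0.642, adjusted p = 0.00978). Hoxa3 was at 1.57 and 3.36 CPM in WT against 0.796 and 0.596 CPM in KO (log2 change -1.84, SE 0.441, adjusted p = 0.0246). Hoxb5, which acts in the enteric nervous system and shoulder, was at 0.706 and 0.891 CPM in WT against 0.126 and 0.170 CPM in KO (log2 change -2.38, SE 0.658, adjusted p = 0.0385). For each of these genes no KO library reached a WT library. Beside them, the 10 late spermatocyte markers summed to 856 and 2152 CPM in WT and to 144 and 183 CPM in KO at 19 dpp, with 10 of 10 lower, and 9 of 10 markers of meiotic prophase were lower. The part of these cells in the Hox differences was not tested.

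Hoxd13, which patterns digits and external genitalia, gave 19 and 4 counts in WT and 0 in both KO libraries at 19 dpp. With 3 counts as the floor over the KO group, it was at least 6.87-fold lower in KO than in the pooled WT libraries (adjusted p = 0.0428 by edgeR). Most WT counts came from replicate 1, and the bound does not hold for replicate 2 alone. Its WT replicates differed widely, and the call rests on few counts.

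Hoxd9 was at 8.06 and 10.1 CPM in WT against 17.2 and 19.2 CPM in KO (log2 change 1.01, SE 0.258, adjusted p = 0.0301). Hoxb9 was higher still in value, at 10.3 and 2.67 CPM in WT against 26.6 and 25.8 CPM in KO, with a log2 difference of 2.02 (SE 0.659) that missed the threshold (adjusted p = 0.0706). The WT replicates of Hoxb9 are the ones far apart. It was called without WT replicate 1, at a log2 value of 3.29, but not without WT replicate 2. Over 17 alternatives its value ran from 1.19 to 3.29, and it was called in 4 of them. All 6 tested genes of the C cluster had positive values in the main fit, between 0.53 and 1.31, with none called. Over the alternatives the values of Hoxc4, Hoxc6 and Hoxc8 reached down to -0.26, -0.24 and -0.18.

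The calls at 19 dpp depended on single libraries of both genotypes. Without KO replicate 1 no gene of the whole table was called (0 at adjusted p under 0.05 by edgeR, 5256 at an unadjusted p under 0.05), and without KO replicate 2 no Hox gene was called. The log2 values of Hoxa4 were then -3.85 and -4.31. Without WT replicate 1, Hoxb5 (adjusted p = 0.0824), Hoxd9 (0.125) and Hoxd13 (0.136) were not called by edgeR. Without WT replicate 2, Hoxa3 had a log2 value of -1.19 (adjusted p = 0.124), and Hoxb5 (0.167) and Hoxd9 (0.0764) were not called either. Scaled to the Sertoli sum, Hoxd9 had a log2 value of 0.12 and was not called. Hoxa3, Hoxa4, Hoxb5 and Hoxd13 stayed lower, but this scaling lowers KO values against WT, so it could not have turned them. It reduces the value of Hoxd9 by itself. The Sertoli markers summed to 11160 and 10100 CPM in KO at 19 dpp, above WT, and 16 of 20 were called higher.

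At 25 dpp more members were called between KO and WT than at 19 dpp, as were more of all tested genes (63.5% against 22%). Hoxb9, Hoxc6, Hoxc8, Hoxd4, Hoxd9, Hoxd10 and Hoxd13 were higher in KO. Scaling to the Sertoli marker sum turned Hoxc6, Hoxc8, Hoxd4, Hoxd9 and Hoxd10 below 0, but that scaling lowers KO values against WT in general. Hoxa3, Hoxa4, Hoxb3 and Hoxd8 were lower. These are 7 and 4 of 27 tested members, against 26.1% of all tested genes called higher and 37.4% called lower, 63.5% in all. The median log2 change was 0.58 over the Hox genes and -0.12 over all genes. Libraries did not overlap for 12 members higher and 5 lower in KO, against 38.5% and 46.1% of all tested genes.

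**Figure D3:**
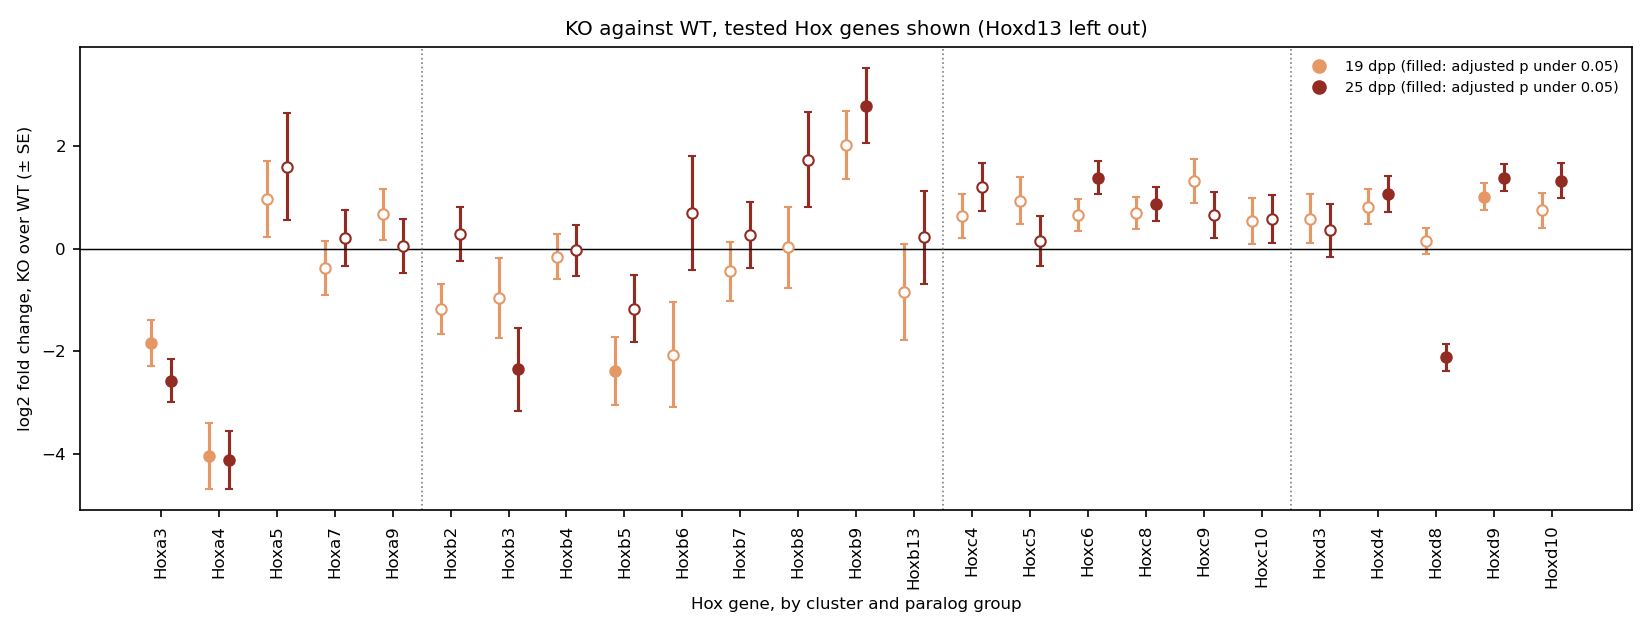
log2 fold change of KO over WT with its SE for 25 tested Hox genes, in light colour at 19 dpp and dark colour at 25 dpp; filled points are called, and dotted lines part the clusters. Hoxa3 and Hoxa4 are filled below 0 at both ages, Hoxd9 is filled above 0 at both ages, and Hoxd8 lies at 0.15 at 19 dpp and -2.11 at 25 dpp (Hoxd13, with KO libraries at 0, is left out).

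The lower genes at 25 dpp included all 3 that had risen with age in WT. The comparisons share the WT libraries at 25 dpp, so the overlap of the lists is not a result of its own. Hoxa4 was at 78.3 and 58.2 CPM in WT against 3.30 and 4.65 CPM in KO (log2 change -4.11, SE 0.559, adjusted p = 0.00107). Hoxa3 was at 9.05 and 7.99 CPM in WT against 1.24 and 1.63 CPM in KO (log2 change -2.57, SE 0.422, adjusted p = 0.00158). Hoxd8 was at 65.6 and 47.3 CPM in WT against 11.7 and 14.4 CPM in KO (log2 change -2.11, SE 0.264, adjusted p = 6.14e-04).

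The groups of these genes were far apart at 25 dpp, and each was called in 17 of 17 alternatives. Late spermatocyte markers moved the same way: their sum was 607 and 1193 CPM in KO at 25 dpp, and 10 of 10 were lower than in WT. All 10 spermatid markers were lower too, with sums of 9.11 and 12.5 CPM in KO, and Tnp2, Prm1 and Prm2 were at 0 there. The part of these germ cell stages in the Hox differences was not tested.

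Hoxb3, a hindbrain gene, was at 4.23 and 0.907 CPM in WT against 0.703 and 0.284 CPM in KO at 25 dpp (log2 change -2.34, SE 0.808, adjusted p = 0.0359). The size of the difference rests largely on WT replicate 1: without it the log2 value was -0.76. The call held in 11 of 17 alternatives, and was also lost with either KO library at 25 dpp left out. In addition, 52.9% of its exon length overlaps the antisense gene Hoxb3os.

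Among the higher genes, Hoxd9 was at 4.04 and 5.29 CPM in WT against 13.9 and 10.3 CPM in KO (log2 change 1.37, SE 0.262, adjusted p = 0.0029). Hoxd10 was at 1.47 and 1.73 CPM in WT against 5.0 and 2.98 CPM in KO (log2 change 1.32, SE 0.347, adjusted p = 0.0115). Hoxd4 was at 0.682 and 1.11 CPM in WT against 2.03 and 1.70 CPM in KO (log2 change 1.06, SE 0.354, adjusted p = 0.0308). In these D cluster genes every KO library exceeded every WT library, and in each of them KO replicate 1 was the higher KO library.

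Hoxc6 was at 1.91 and 1.99 CPM in WT against 6.14 and 3.98 CPM in KO (log2 change 1.38, SE 0.319, adjusted p = 0.00667). Hoxc8, which shapes thoracic vertebrae and motor neurons, was at 0.682 and 0.731 CPM in WT against 1.41 and 1.17 CPM in KO (log2 change 0.87, SE 0.328, adjusted p = 0.0482). The WT libraries were nearly equal for both genes. The call of Hoxc8 held in only 2 of 17 alternatives and was lost with any 1 of the 8 libraries left out. Hoxc4, at 0.409 and 1.11 CPM in WT against 1.49 and 1.99 CPM in KO, missed the threshold (log2 difference 1.19, SE 0.467, adjusted p = 0.055). All 6 tested genes of the C cluster again had positive values in the main fit, from 0.15 to 1.38. Over the alternatives those of Hoxc4, Hoxc6 and Hoxc8 reached down to -0.16, -0.07 and -0.56.

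Hoxb9 was at 0.654 and 0.790 CPM in WT against 7.08 and 2.80 CPM in KO (log2 change 2.78, SE 0.731, adjusted p = 0.0139). Hoxd13 gave 3 and 1 counts in WT and 21 and 10 counts in KO (log2 change 2.97, SE 1.02, adjusted p = 0.0385). Both genes thus had KO libraries above WT libraries and KO replicate 1 as the highest of the group.

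**Figure D4:**
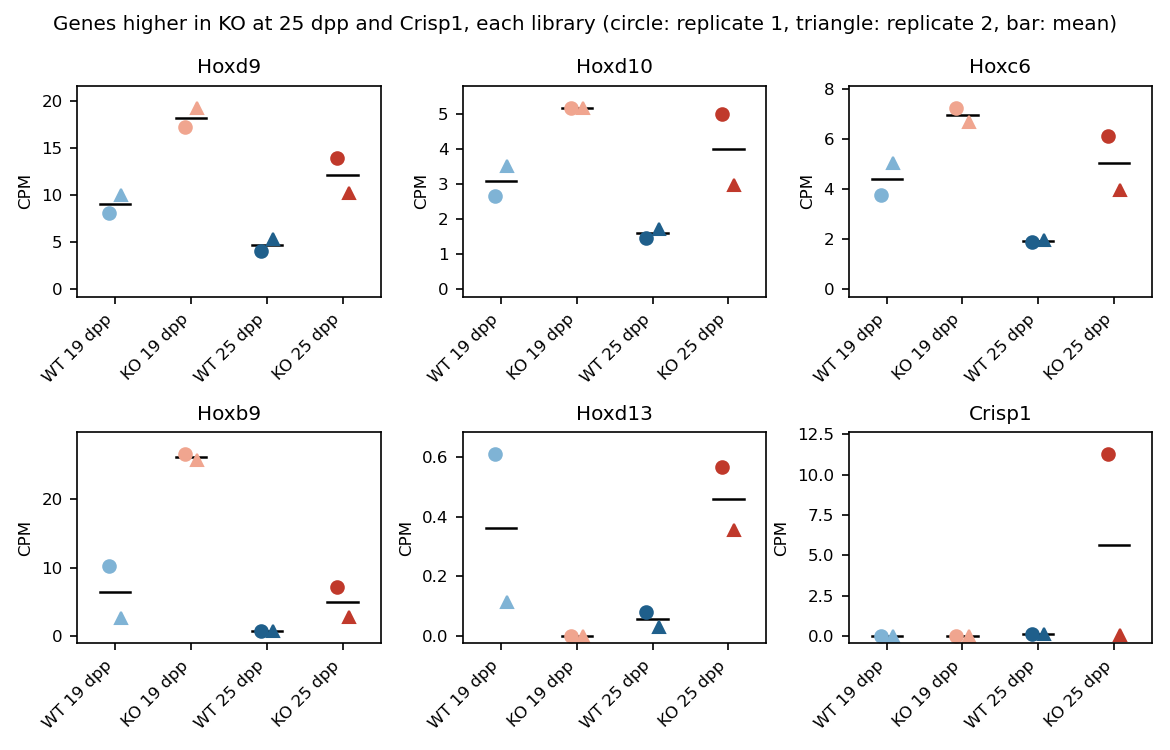
CPM of Hoxd9, Hoxd10, Hoxc6, Hoxb9 and Hoxd13, and of the epididymal gene Crisp1, in each library (circle, replicate 1; triangle, replicate 2; bar, group mean). KO replicate 1 at 25 dpp, the library with 11.3 CPM of Crisp1, lies above KO replicate 2 in all 6 panels, and Hoxb9 is highest in KO at 19 dpp, where Crisp1 is at 0.

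Without KO 25 dpp replicate 1, only Hoxd9 of the 7 higher genes was called (log2 change 1.16, adjusted p = 0.0238). The values of the others stayed positive: 1.97 for Hoxb9 (adjusted p = 0.0784), 1.05 for Hoxc6 (0.0504), 0.75 for Hoxc8 (0.179), 0.94 for Hoxd4 (0.127), 0.92 for Hoxd10 (0.0857) and 2.6 for Hoxd13 (0.168). Hoxa3, Hoxa4 and Hoxd8 were still called lower, while Hoxb3 lost its call at a log2 value of -3.14. Over all 35 genes that library was the higher of its group for 18 and the lower for 17. Hoxb8, at 0.568 and 0.0710 CPM, and Hoxb6, at 0.433 and 0 CPM, were also higher in it. The part of epididymal tissue in these values was not tested. Without WT 25 dpp replicate 1, Hoxc6, Hoxd9 and Hoxd10 were called higher and the other four were not.

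Beside the 7 higher genes, the Sertoli markers summed to 8800 and 7652 CPM in KO against 2723 and 3431 CPM in WT at 25 dpp, 19 of 20 being higher. Of 10 spermatogonia markers 8 were higher and 1 lower, and of 10 markers of interstitial stroma 6 and 1. Of all tested genes, 26.1% were called higher and 37.4% lower. The part of these cell types in the Hox values was not tested. Scaled to the Sertoli sum, none of the 7 was called, and the log2 values turned to -0.07 for Hoxc6, -0.56 for Hoxc8, -0.34 for Hoxd4, -0.05 for Hoxd9 and -0.12 for Hoxd10. That scaling shifts the median of all genes by -1.43 at 25 dpp and by -0.85 at 19 dpp. Hoxa3, Hoxa4, Hoxb3 and Hoxd8 stayed lower under it, but a shift in that direction moves values further below 0, so this is no test of them. The shift at 25 dpp is also larger than the main log2 values of Hoxc6, Hoxc8, Hoxd4, Hoxd9 and Hoxd10. Their turn below 0 is therefore no test of them either.

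Within KO, fewer members were called between 19 and 25 dpp than in WT, as were fewer of all tested genes (19.1% against 60.3%). Hoxa4 and Hoxd13 rose, and Hoxb9 and Hoxc8 fell, which is 2 and 2 of 27 tested members against 10.2% and 8.87% of all tested genes. Libraries of the ages did not overlap for 3 members higher and 16 lower at 25 dpp, against 33.3% and 32.2% of all tested genes. Hoxa4 went from 0.335 and 0.454 CPM to 3.30 and 4.65 CPM, a log2 change of 3.29 (SE 0.643, adjusted p = 0.0178). That size is close to the 3.36 in WT, and the difference between them was -0.07 (SE 0.979, adjusted p = 1); this does not show that the genotypes act alike. At 25 dpp the KO libraries stood near the lower WT library at 19 dpp, which had 3.11 CPM.

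**Figure D5:**
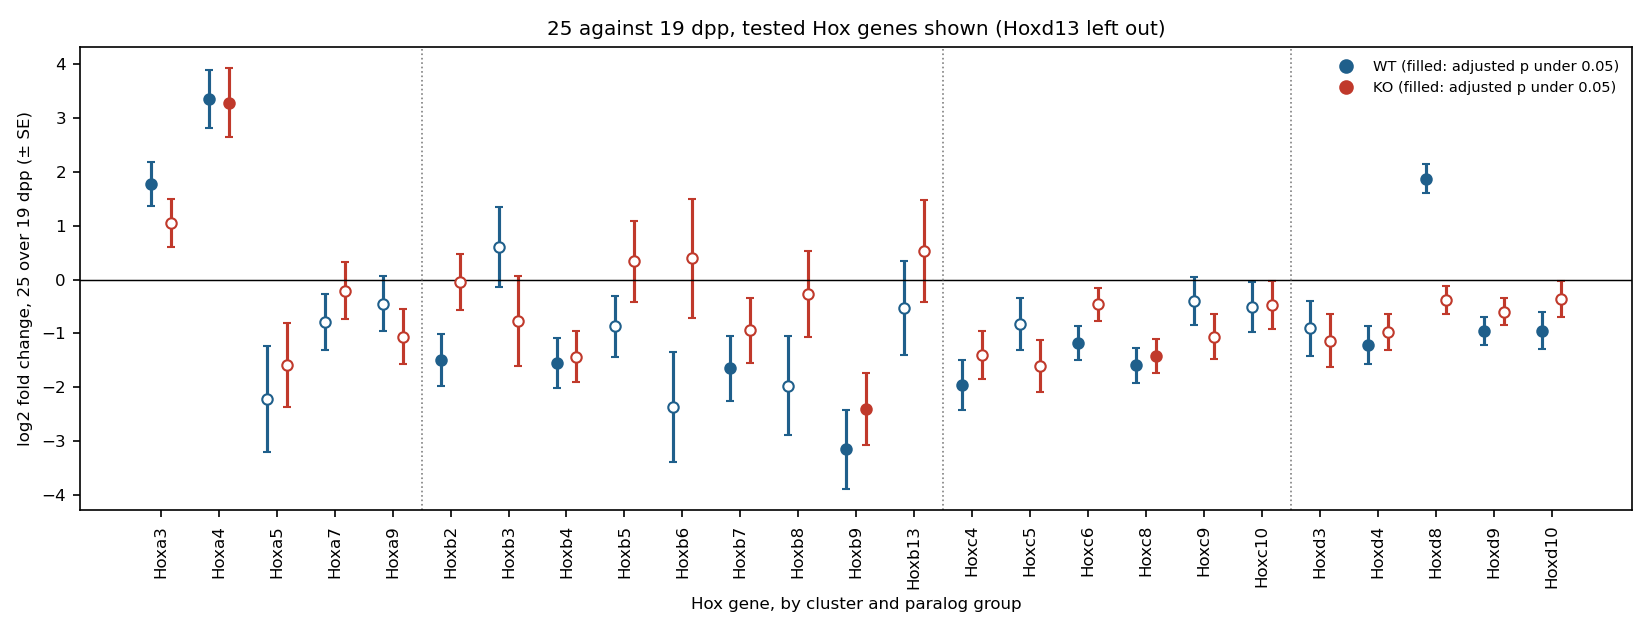
log2 fold change of 25 over 19 dpp with its SE for 25 tested Hox genes, in blue for WT and red for KO; filled points are called, and dotted lines part the clusters. Hoxa4 is filled above 0 in both genotypes, Hoxd8 is at 1.88 in WT and -0.38 in KO, and most other genes lie below 0 in both (Hoxd13 is left out).

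Hoxb9 fell in KO from 26.6 and 25.8 CPM to 7.08 and 2.80 CPM (log2 change -2.40, SE 0.669, adjusted p = 0.0493). Hoxc8 fell from 3.65 and 3.26 CPM to 1.41 and 1.17 CPM (log2 change -1.42, SE 0.314, adjusted p = 0.0219). Hoxd13 rose from 0 counts in both libraries to 21 and 10 counts, at least 9.37-fold with the libraries of each age pooled (adjusted p = 0.0363 by edgeR). Each of these calls, and that of Hoxa4, was lost when any 1 of the 4 KO libraries was left out.

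Hoxd8 was the member whose difference between KO and WT itself differed most firmly between the ages. At 19 dpp it was at 12.2 and 18.4 CPM in WT against 17.9 and 16.3 CPM in KO, with overlapping libraries (log2 difference 0.15, SE 0.256, adjusted p = 0.727). From 19 to 25 dpp it rose in WT, whereas in KO it was at 11.7 and 14.4 CPM at 25 dpp (log2 difference -0.38, SE 0.257, adjusted p = 0.337). The difference of the KO effects was -2.26 (SE 0.365, adjusted p = 0.00929), and it was called in 16 of 16 alternatives. Of all tested genes, 7.68% were called higher and 11.4% lower in this comparison, and among Hox genes Hoxd8 was called lower and Hoxd13 higher, 1 each of 27.

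The antisense and other non-coding genes of the clusters held some of the steepest changes. Of 17 such genes in the files 6 were tested. At 25 dpp none of these was higher and Hoxb5os, Hoxd3os1 and Haglr were lower in KO, against 26.1% and 37.4% of all tested genes. Hoxd3os1, antisense across Hoxd8 and the start of Hoxd3, was at 1.99 and 7.61 CPM in WT against 0.838 and 0.341 CPM in KO at 19 dpp, and at 98.8 and 65.8 CPM in WT against 1.51 and 3.58 CPM in KO at 25 dpp. The log2 change of KO over WT was -3.09 (SE 0.827, adjusted p = 0.0407) and then -5.03 (SE 0.783, adjusted p = 0.00183), and that with age in WT was 4.09 (SE 0.742, adjusted p = 0.00401).

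Hoxb5os was at 0.321 and 1.29 CPM in WT against 0 and 0.0284 CPM in KO at 19 dpp. At 25 dpp it was at 9.62 and 6.44 CPM in WT against 0.352 and 1.38 CPM in KO (log2 change -3.23, SE 0.796, adjusted p = 0.00955). Its sense partner Hoxb5 did not follow it upward in WT: Hoxb5 was at 0.491 and 0.380 CPM in WT at 25 dpp and 0.0811 and 0.319 CPM in KO (log2 difference -1.17, adjusted p = 0.149). Haglr, beside Hoxd1, was at 4.34 and 0.878 CPM in WT against 0.135 and 0.142 CPM in KO at 25 dpp (log2 change -4.20, SE 1.02, adjusted p = 0.0089). The exons of Hoxd8 and Hoxd3os1 do not overlap, although Hoxd8 lies inside the span of Hoxd3os1.

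The clusters also hold microRNA genes that target Hox transcripts. The mature sequences of the miR-196 and miR-10 families, from the RefSeq table on GRCm38.p6, are shown with the seed (bases 2 to 8) in capitals, because the families share a seed each and a near-complete match to miR-196a lies in Hoxb8.
mmu-miR-196a-5p: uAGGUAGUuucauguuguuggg
mmu-miR-196b-5p: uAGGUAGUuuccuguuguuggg
mmu-miR-10a-5p: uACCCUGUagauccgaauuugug
mmu-miR-10b-5p: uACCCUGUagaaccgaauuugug
Hoxb8 site: CCCAACAACAUGAAACUgCCUA
The site lies in the 3' UTR of Hoxb8 at chr11:96284888-96284909 on the plus strand (GRCm38), and capitals mark the 21 of 22 bases that pair with miR-196a by Watson-Crick rules, the remaining one being a G:U pair. Mature microRNAs are not captured by these mRNA libraries, so only reads counted on the precursor locus can be given. Mir196a-1, which lies between Hoxb13 and Hoxb9 at chr11:96265164-96265265, was at 2.5 and 0.891 CPM in WT against 6.5 and 4.31 CPM in KO at 19 dpp. At 25 dpp it was at 0.109 and 0.468 CPM in WT against 0.379 and 0.107 CPM in KO. It fell with age in WT (log2 change -2.55, adjusted p = 0.029) and in KO (-4.40, SE 0.846, adjusted p = 0.0153), as did its neighbour Hoxb9. Hoxb8 itself was at 0.449 and 0.345 CPM in WT against 0.377 and 0.426 CPM in KO at 19 dpp, with no call in any comparison.

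Of 18 genes that flank the clusters 15 were tested, and at 25 dpp 4 were higher and 3 lower in KO, where 26.1% and 37.4% of all tested genes were called. Ttll6, a tubulin glutamylase of cilia that lies 28.9 kb from the Hoxb13 end of the B cluster, was at 229 and 158 CPM in WT against 5.22 and 7.88 CPM in KO at 25 dpp (log2 change -4.89, SE 0.604, adjusted p = 8.44e-04). Hnrnpa1, an RNA-binding protein gene on the side of the C cluster, was higher (0.87, adjusted p = 9.65e-04). Lnpk, beside the D cluster, was lower in KO at 19 dpp (log2 change -0.84, adjusted p = 0.0154) and had a log2 difference of -0.10 at 25 dpp (adjusted p = 0.638).

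The 9 TALE cofactor genes were all tested, and 3 were higher and 3 lower in KO at 19 dpp, 4 and 4 at 25 dpp. Of all tested genes, 22% were called in either direction at 19 dpp and 63.5% at 25 dpp. Meis1 was at 18.0 and 16.1 CPM in WT against 36.5 and 31.5 CPM in KO at 19 dpp, and at 6.60 and 8.42 CPM in WT against 15.2 and 16.6 CPM in KO at 25 dpp (log2 changes 1.00 and 1.08, adjusted p = 0.0137 and 0.00252). Pbx4, a germ cell member of the family, was lower at both ages, with 29.2 and 56.9 CPM in WT against 2.22 and 3.89 CPM in KO at 19 dpp and 153 and 141 CPM in WT against 26.1 and 34.0 CPM in KO at 25 dpp (log2 changes -3.80 and -2.29, adjusted p = 0.00714 and 0.0018).

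Of 27 polycomb and trithorax regulators, all tested, none was higher and 8 were lower in KO at 19 dpp, and 13 were higher and 7 lower at 25 dpp. Of all tested genes, 8.8% were higher and 13.2% lower at 19 dpp, and 26.1% and 37.4% at 25 dpp. Ezh2, the catalytic subunit of polycomb repressive complex 2, was at 77.8 and 84.7 CPM in WT against 45.9 and 49.4 CPM in KO at 19 dpp (log2 change -0.77, adjusted p = 0.0113). Cbx7, a reader of the polycomb mark, was lower at 19 dpp by -0.91 (adjusted p = 0.011). At 25 dpp Kmt2a, the trithorax methyltransferase that keeps Hox genes active, was at 58.5 and 84.1 CPM in WT against 226 and 220 CPM in KO (log2 change 1.64, adjusted p = 3.87e-04), and no KO library overlapped a WT library. Psip1 and Dot1l, the genes of this list with the highest mean level, were lower in KO at 25 dpp (log2 changes -1.75 and -1.18, edgeR adjusted p = 0.00171 and 5.64e-04). Psip1 was also lower at 19 dpp (-1.48, edgeR adjusted p = 0.0132).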

How the data were processed

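RNA from 8 whole testes libraries was made into stranded mRNA libraries, per the labels' protocols. The authors deposited raw read counts per gene; the submitters' processing notes name STAR 2.7.0a, featureCounts 1.5.1 and mm10. The strand setting, the handling of multi-mapping reads and the annotation are not given in the sources used here. Repeat families, 1205 of 55292 entries, were kept apart. Counts were fitted with edgeR 4.0.16 (quasi-likelihood, robust, TMM, filterByExpr by group, 1 term per group, all 8 libraries, 4 residual degrees of freedom), with Benjamini-Hochberg adjustment over 23353 genes and a threshold of 0.05. SE is the log2 fold change divided by the square root of F. Alternatives were other scalings and filters, DESeq2 1.42.0, limma-voom (limma 3.58.1), a replicate block, fits of only the groups compared and leaving out each library. The scripts were tested on simulated data. Exon lengths came from GENCODE M21, sequences from RefSeq. Floors of 3 counts cover counting error only. Full values are given for members called in KO against WT or in the difference of the KO effects and for the 2 members per cluster with the highest level per kilobase, and for up to 4 genes per comparison of the other lists; further genes (Hoxb2, Hoxb4, Hoxb6, Hoxb8 and the tissue markers) were chosen after their values were seen. The members and lists were chosen with earlier results of these data known. Values of 1 member and 1 cofactor gene are not reported here, but both stay in the counts.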

Additional observations from a re-analysis of the deposited data

Results flagged for a closer look

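The difference between KO and WT itself differed between the ages for 4464 of 23353 genes (19.1%), by the interaction term of the edgeR fit with Benjamini-Hochberg adjustment. Given here are 10 of them, namely the Hox members called and those called among the genes named from the other lists; among polycomb and trithorax regulators alone 10 were higher and 2 lower. Values are the log2 KO effect at 25 dpp minus that at 19 dpp. Among Hox genes it was -2.26 for Hoxd8 (0.15 at 19 dpp, -2.11 at 25 dpp, adjusted p = 0.00929) and 9.53 for Hoxd13 (adjusted p = 0.0243), a fitted value that is no bound because both KO libraries at 19 dpp were at 0. For the non-coding Haglr it was -6.33 (2.13 and -4.20, adjusted p = 0.0368). Its value at 19 dpp was not called, and its WT libraries at 25 dpp differed widely. Among flanking genes it was -2.87 for Ttll6 (-2.02 and -4.89, adjusted p = 0.0454) and 0.83 for Hibadh (-0.14 and 0.69, adjusted p = 0.0234). Among TALE cofactors it was -4.37 for Pknox2 (0.63 and -3.74, adjusted p = 0.00721), 2.31 for Pbx3 (-0.87 and 1.44, adjusted p = 0.0086) and 1.39 for Pbx2 (-0.25 and 1.14, adjusted p = 0.0155). Among chromatin regulators it was -1.44 for Dot1l (0.26 and -1.18, adjusted p = 0.00678) and 1.61 for Kdm6a (0.07 and 1.68, adjusted p = 0.00955).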

How the results depend on the processing

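The count of 3 Hox genes higher at 25 dpp in WT was 3 under every alternative run. At 19 dpp the 1 higher gene became 0 with total-count or Sertoli scaling and 2 with DESeq2, limma-voom, the replicate block or only the groups compared (0 to 1 with a library left out), and the 4 lower became 2 with a 1-CPM filter (0 to 4). At 25 dpp the 7 higher became 0 with Sertoli scaling (1 to 7; 1 without KO 25 dpp replicate 1, 3 without WT 25 dpp replicate 1), and the 4 lower became 6 with Sertoli scaling, where Hoxb4 and Hoxb5 were added (3 to 4 with a library left out). In WT the 11 that fell became 17 with total-count and 1 with Sertoli scaling (3 to 12; 3 without WT 25 dpp replicate 1). In KO the 2 that rose became 1 with the 1-CPM filter or DESeq2 (0 to 2), and the 2 that fell became 1 with DESeq2 size factors, 0 with Sertoli scaling, 5 with DESeq2 and 6 with only the groups compared (0 to 3). The difference of the KO effects had 1 higher, 0 with the 1-CPM filter (0 to 1), and 1 lower throughout. The 1-CPM filter left 17 Hox members to test and removed Hoxb5 and Hoxd13, so their calls are absent there because they were not tested. Sertoli scaling reversed the log2 change of Hoxc6 (-0.070), Hoxc8 (-0.56), Hoxd4 (-0.34), Hoxd9 (-0.051) and Hoxd10 (-0.12) at 25 dpp. That scaling moved the median of all genes by -1.43 there, which is more than the size of these changes in the main fit. The reversal is therefore no test of these genes, and its cause was not tested. DESeq2 gave no adjusted p for 6 members at 19 dpp and 3 with age in KO, which stay without one. The replicate numbers were not taken as pairs. Deviations of same-numbered libraries from their group means correlated at -0.0877 to 0.361, which cannot show whether a pairing or batch exists. With the replicate block, Hoxb9 at 19 dpp was called by edgeR (2.26, adjusted p = 0.0261). With a library left out, the lone library of its group is assumed to vary like the others. Most members lie under 1 CPM, where depth limits what can be seen.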
